A study of Mus musculus with 6 samples.

Results

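The genes of MHC class II presentation were followed in bone marrow of diabetic and wild type mice. The 9 genes were taken by symbol and were H2-Aa, H2-Ab1, H2-Eb1, H2-Ea, H2-DMa, H2-Oa, H2-Ob, Cd74 and Ciita. They are 9 of 19938 genes that had a probe set with exactly 1 gene symbol, and each was read by 1 such probe set. Marrow had been washed from the femur and tibia shafts with PBS, with no cell sorting described, and 3 diabetic and 3 wild type samples were each hybridised to 1 Affymetrix array. The labels give the genotype of the diabetic mice as BKS.Cg-Dock7m -/- Leprdb/JNju and that of the wild type mice as BKS.Cg-Dock7m +/+ Leprdb/JNju. Both groups were thus of the BKS background, and both entries name the Dock7m coat colour marker and the Leprdb allele of the leptin receptor gene, whose loss causes obesity and type 2 diabetes. All animals were males of 10 weeks. The labels do not say whether each array carries RNA of a single mouse or of several. The p-values therefore set the difference of the groups against the spread between arrays, which may not be the spread between mice. Values are log2 signals that had been through the RMA procedure for Affymetrix arrays, a change is the diabetic mean minus the wild type mean, and the small number of arrays limits the precision.

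Class II molecules are pairs of an alpha and a beta chain that show peptides from the endosome to CD4+ T cells. The invariant chain, encoded by Cd74, fills the groove of a new pair and steers it to the endosome, proteases there trim the invariant chain, and H2-DM exchanges its last fragment for a peptide while H2-O restrains H2-DM. The transactivator encoded by Ciita binds no DNA itself and switches the whole set on through factors that sit on shared promoter boxes, the X box, bound by the RFX complex, and the Y box, bound by NF-Y. In marrow the set is carried mainly by B cells after their early stages and by dendritic cells, with some in macrophages. Interferon gamma can raise Ciita in many other cells.

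Promoter windows from 250 bases before to 50 bases after the gene start were found in the RefSeq table of build GRCm38.p6 for 5 members, H2-Aa, H2-Eb1, H2-Oa, H2-Ob and H2-DMa. H2-Ab1, H2-Ea, Cd74 and Ciita had no entry matched there. In 4 of the 5, the letters GCAAC, a part of the X box, were followed by ATTGG, the core of the Y box, with the second motif starting 25 to 40 bases after the first. The stretches that hold the pair are printed because these are the boxes through which Ciita acts, with both motifs in capitals, 5′ to 3′ on the strand of the gene. They come from chr17:34287832-34287931 (minus strand) for H2-Aa, chr17:34305748-34305847 (plus strand) for H2-Eb1, chr17:34092276-34092375 (plus strand) for H2-Oa and chr17:34238788-34238887 (plus strand) for H2-Ob.
H2-Aa: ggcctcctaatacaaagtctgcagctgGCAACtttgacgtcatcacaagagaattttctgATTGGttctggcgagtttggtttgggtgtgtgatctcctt
H2-Eb1: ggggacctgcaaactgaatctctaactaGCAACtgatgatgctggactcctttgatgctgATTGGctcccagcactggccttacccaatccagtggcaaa
H2-Oa: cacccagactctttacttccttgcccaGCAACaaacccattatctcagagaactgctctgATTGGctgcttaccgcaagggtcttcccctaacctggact
H2-Ob: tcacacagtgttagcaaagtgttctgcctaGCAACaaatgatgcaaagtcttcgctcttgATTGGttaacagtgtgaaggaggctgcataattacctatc
The starts of the 2 motifs were 33 bases apart in H2-Aa, 32 in H2-Eb1, 33 in H2-Oa and 30 in H2-Ob. With both strands searched, GCAAC was found in 35.2% and ATTGG in 37.4% of all 32851 windows, and the spaced pair in 261 windows, or 0.794%. The motifs and their spacing were set with these promoters in view, so the pair describes the family and is no test. Neither of the 2 windows listed for H2-DMa held the pair, which says only that these letters are not in those windows. The reference sequence is that of C57BL/6J, and the sequence of the BKS mice at these places was not analysed here.

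The arrays differed in ways that the groups do not explain. On wild type replicate 3 the mean log2 signal of 13 mature B cell markers was 9.76, while the other 5 arrays lay between 10.22 and 10.65. The mean of 5 erythroid markers was highest on that array, at 12.36 against 11.76 to 12.26 on the other 5. Marrow identity itself was plain, with neutrophil markers such as Elane and Ltf averaging 13.43 ± 0.10 in diabetic and 13.42 ± 0.04 in wild type marrow (SD, n = 3 each). The class II changes and the means of the main marker and comparison lists are therefore also given without wild type replicate 3. In unsorted marrow, fewer cells of a type and less RNA per cell cannot be told apart.

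Of the 9 genes, 7 lie on chromosome 17, in the major histocompatibility complex, while Ciita lies on chromosome 16 and Cd74 on chromosome 18. No class II gene passed the test between diabetic and wild type marrow. In limma across 12029 genes, 0 of the 9 had an adjusted p (Benjamini-Hochberg) under 0.05, where 52 genes, or 0.432% of all tested, did. At an unadjusted p under 0.05 there were also 0 of 9, against 7.18% of all genes. The median log2 change of the 9 was -0.02, beside 0.00 over all genes tested, with 6 members lower and 3 higher. The groups overlapped for all 9 members, while they were separate for 12.4% of all genes.

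The genes of the A and E molecules, the classical peptide-presenting pairs, moved together from array to array but not with the group. H2-Aa, the alpha chain of the A molecule, had log2 signals of 10.85, 10.87 and 11.10 on the diabetic arrays and 11.23, 11.09 and 10.53 on the wild type arrays. The lowest and the highest value were both wild type. Its change was -0.01 ± 0.17 (SE, n = 3 per group), with a 95% interval of -0.41 to 0.39 and an adjusted p of 0.997 in limma. H2-Ab1, its beta chain, had 10.23, 10.17 and 10.37 in diabetic and 10.62, 10.48 and 10.05 in wild type marrow. The wild type values again spanned the diabetic ones, and the change was -0.13 ± 0.14, with an interval of -0.45 to 0.20.

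H2-Eb1, the beta chain of the E molecule, was the only one of the 4 chain genes with its highest value on a diabetic array, with 10.50, 10.48 and 10.94 in diabetic and 10.80, 10.72 and 10.33 in wild type marrow. Its change was 0.02 ± 0.16 (interval -0.34 to 0.39). H2-Ea, the alpha chain of that molecule, had 11.79, 11.73 and 12.03 in diabetic and 12.15, 11.99 and 11.49 in wild type marrow, a change of -0.02 ± 0.16 (interval -0.40 to 0.36). The RefSeq table, made on C57BL/6J, lists H2-Ea as a transcribed pseudogene, since that strain carries a deletion at the gene, whereas C57BLKS mice carry a haplotype in which the chain is made. As fold changes, the intervals of these 4 genes reached from 0.733 for H2-Ab1 to 1.31 for H2-Aa and H2-Eb1. With 3 arrays per group, shifts inside the interval of each gene were not excluded.

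**Figure D1:**
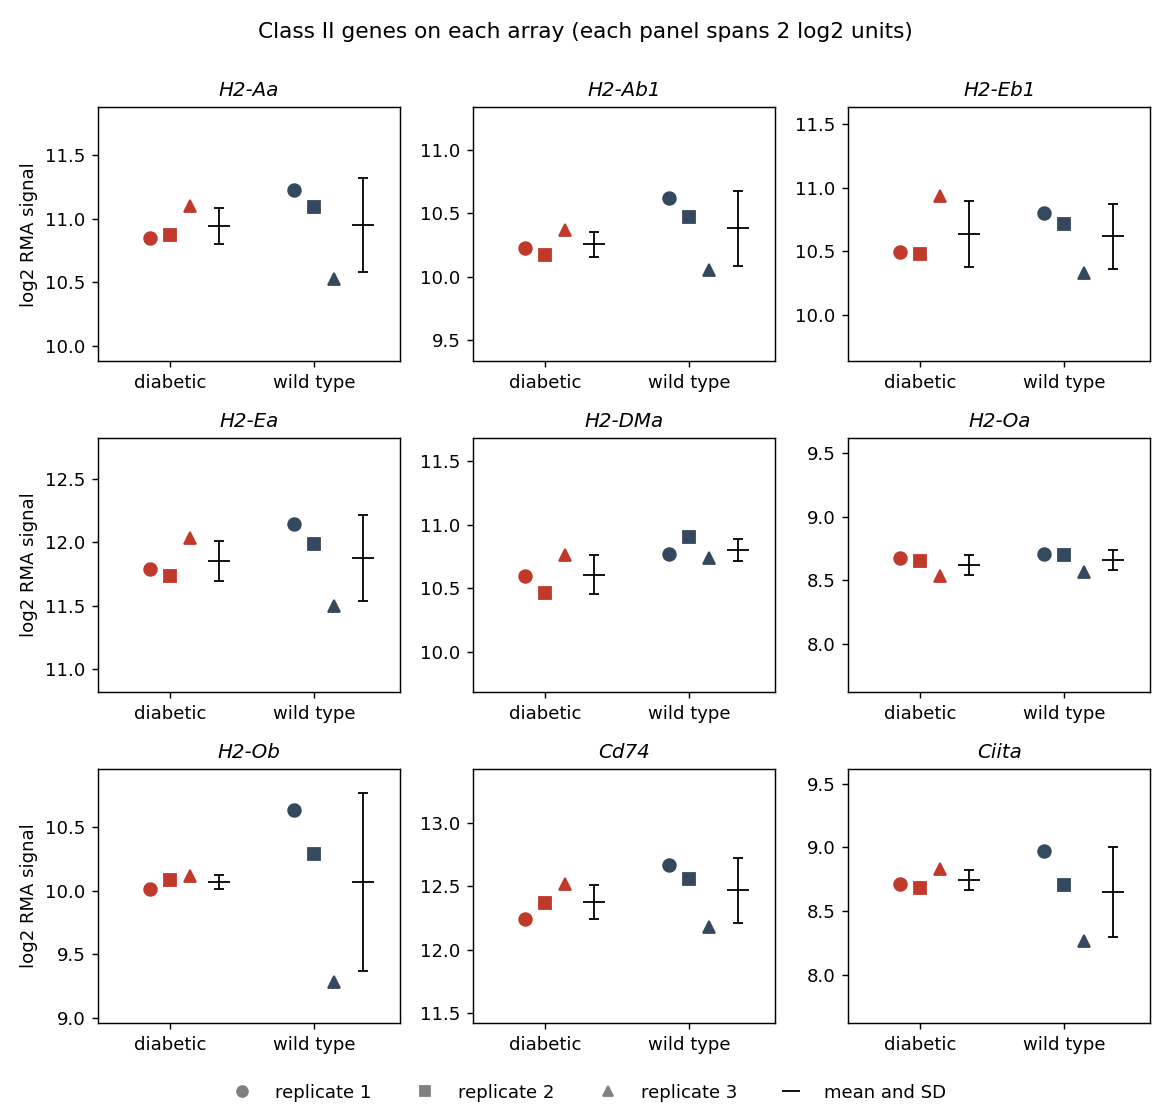
Log2 RMA signal of each of the 9 class II genes (y axis, 2 log2 units per panel, each panel on its own level) on the 3 diabetic and 3 wild type arrays, with marker shape giving the replicate and black bars the mean and SD of each group (n = 3). The groups overlap in all 9 panels, and wild type replicate 3 is the lowest array for 7 genes.

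Cd74, the invariant chain, followed the chains it escorts. Its log2 signals were 12.24, 12.37 and 12.51 in diabetic and 12.67, 12.55 and 12.18 in wild type marrow, so that 2 wild type arrays were above and 1 below all diabetic arrays. Its change was -0.09 ± 0.13 (SE, n = 3 per group), with an interval of -0.40 to 0.21 and an adjusted p of 0.981 in limma.

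H2-DMa, a chain of the peptide exchanger, had the largest difference of the 9. Its values were 10.59, 10.46 and 10.76 in diabetic and 10.77, 10.90 and 10.74 in wild type marrow, and only diabetic replicate 3 reached into the wild type range. The change was -0.20 ± 0.09 (SE, n = 3 per group), with an interval of -0.41 to 0.01 and an adjusted p of 0.719 in limma. Wild type replicate 3 had the lowest wild type value of H2-DMa but, unlike for the chain genes, not the lowest of the 6 arrays. Without that array the change of H2-DMa was -0.23. H2-DMb1 and H2-DMb2, which encode the partner chain, had no probe set with 1 symbol and were not analysed here.

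The 2 genes of H2-O differed in how far they ranged. H2-Oa, the alpha chain, had 8.68, 8.65 and 8.53 in diabetic and 8.71, 8.70 and 8.57 in wild type marrow, a range of 0.18 over the 6 arrays. H2-Ob, the beta chain, had 10.01, 10.09 and 10.12 in diabetic and 10.63, 10.29 and 9.28 in wild type marrow, a range of 1.35. The diabetic values of H2-Ob stood within the wild type spread, and its change was 0.00 ± 0.29 (SE, n = 3 per group), with the widest interval of the 9, -0.68 to 0.69. The change of H2-Oa was -0.04 ± 0.07. The printed promoters of both hold the spaced motif pair.

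Ciita, the transactivator, had 8.71, 8.68 and 8.83 in diabetic and 8.97, 8.71 and 8.27 in wild type marrow. Its highest and lowest values were those of wild type replicates 1 and 3, as for H2-Aa, H2-Ab1, H2-Ea, H2-Ob and Cd74. Its change was 0.09 ± 0.16 (SE, n = 3 per group), with an interval of -0.28 to 0.46 and an adjusted p of 0.982 in limma.

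For 7 of the 9 members the sign of the change turned when 1 array or another was left out, while H2-DMa and H2-Ab1 stayed lower in diabetic marrow whichever array was omitted. Without wild type replicate 3, all 9 members were lower in diabetic marrow and their median change was -0.22, while that of all genes was 0.01. That array was the lowest wild type array for every member, so omitting it had to move each change downward. H2-Ob was then at -0.39 ± 0.10 and H2-Ab1 at -0.29 ± 0.08 (SE, 3 diabetic and 2 wild type arrays). Cd74 was at -0.24 ± 0.09 and H2-Aa at -0.22 ± 0.09. Of the 9, 5 had an unadjusted p under 0.05, where 10.3% of all genes did and 5.23% did so in the lower direction, and 0 passed the adjusted threshold in limma, where the smallest adjusted p was 0.214, for H2-Ob, and 0.574% of all genes passed. Without wild type replicate 1 the median of the 9 had the other sign, 0.11, with 6 members higher in diabetic marrow. When limma weighted the arrays by their quality, 3 members passed, H2-DMa at -0.29, Cd74 at -0.25 and H2-Ab1 at -0.23, with adjusted p of 0.00921, 0.0353 and 0.0386. In that fit 15.6% of all genes passed, the estimate of the weights did not reach its convergence tolerance, and wild type replicate 2 had a weight of 11.7 while wild type replicate 3 had 0.251.

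**Figure D2:**
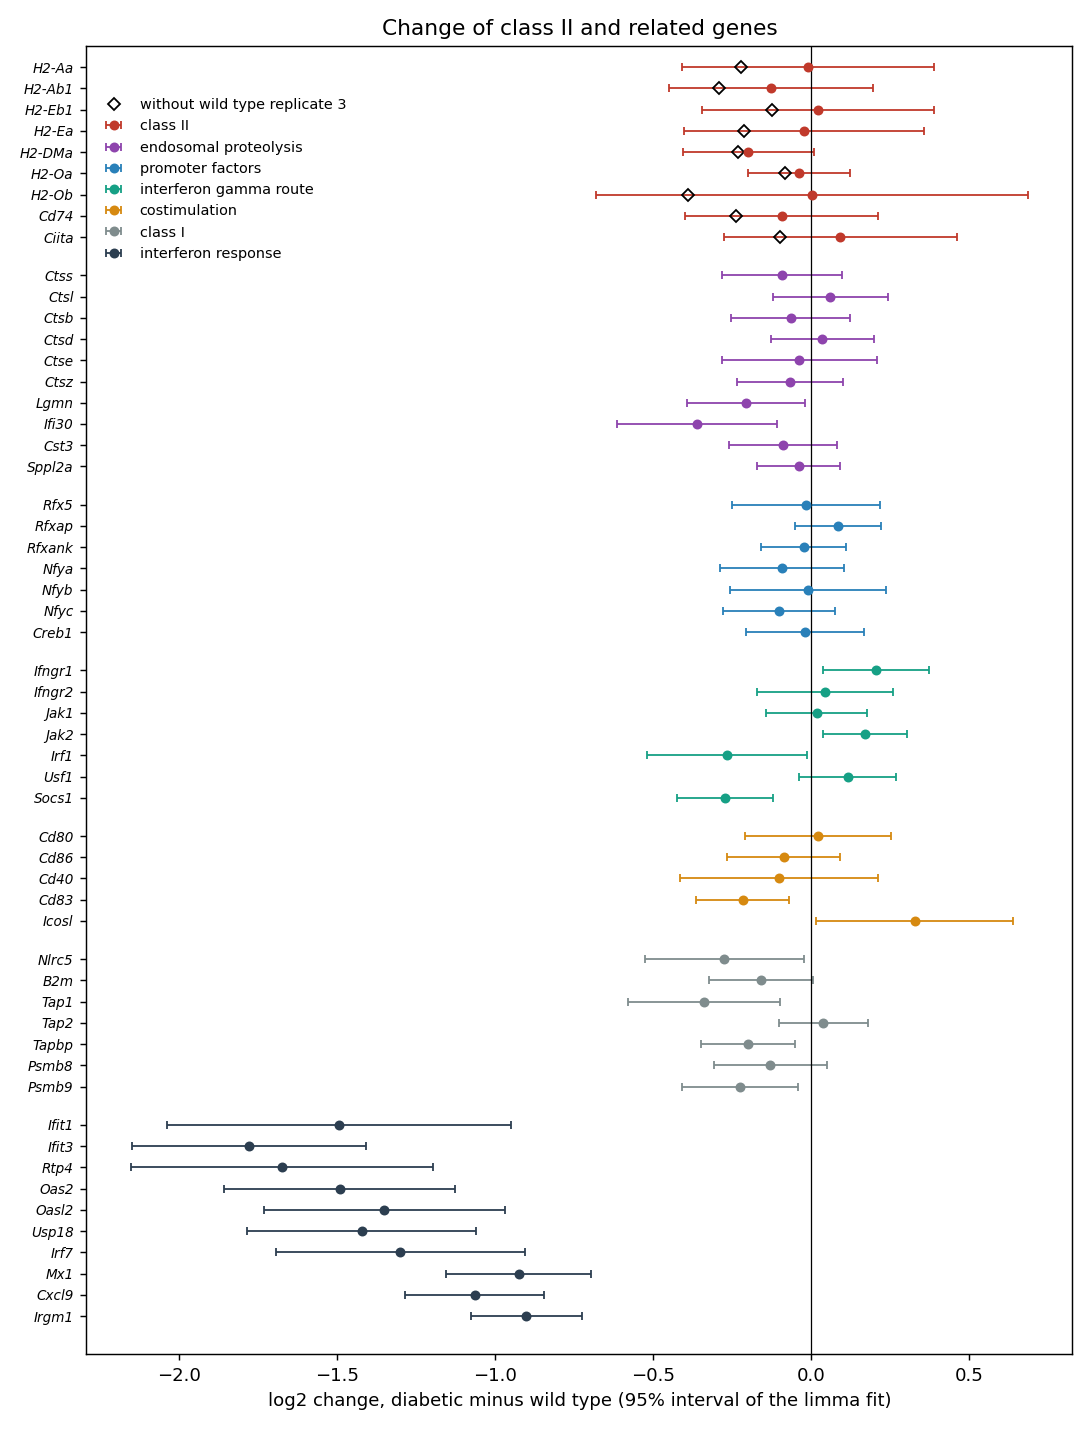
Log2 change of the 9 class II genes and of 6 related lists, diabetic minus wild type (x axis), with 95% intervals of the limma fit of all 6 arrays, and open diamonds for the class II genes without wild type replicate 3. The class II intervals all include 0 and the diamonds all lie below 0, while the interferon response genes lie between -1.78 and -0.90. Omitting wild type replicate 3, the lowest wild type array for every class II gene, had to lower each change.

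To describe how the members varied among themselves, each gene was centred on its mean over the 6 arrays and set against the mean profile of H2-Aa, H2-Ab1, H2-Eb1 and Cd74. That profile was -0.12, -0.11 and 0.15 on the diabetic arrays and 0.25, 0.13 and -0.31 on the wild type arrays. H2-Ea, which did not enter it, had the smallest root mean square difference from it of all 12029 genes, 0.038 on the log2 scale, and Ciita ranked 59th with 0.098. The median gene differed by 0.211. H2-DMa, H2-Oa and H2-Ob were at 0.175, 0.184 and 0.246, and H2-Ob reached 0.56 and -0.78 where the profile was at 0.25 and -0.31. The points are 6 arrays of 1 tissue, so likeness here is a description and carries no test.

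The 10 other genes nearest to that profile were Cxcr5, Ankrd23, Dusp22, Mlxip, Dtx1, Clcf1, Gm8995, Heatr6, Fkbp5 and Filip1l, with differences from 0.046 for Cxcr5 to 0.074 for Filip1l. Cxcr5 is the chemokine receptor that brings B cells into follicles and is 1 of the 13 mature B cell markers tested. The selection was not stable, since leaving out 1 array kept between 1 and 7 of these 10.

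The B cell markers were also low on wild type replicate 3. The mean of the 13 mature B cell markers was 10.22, 10.34 and 10.26 in diabetic and 10.65, 10.52 and 9.76 in wild type marrow, beside 10.40, 10.39 and 10.58 and 10.73, 10.60 and 10.16 for the mean of the 9 class II genes on the same arrays. The 2 means parted on diabetic replicate 3, the highest diabetic array for the class II mean. The mature B cell markers themselves were divided on that array. Among the diabetic arrays, Cxcr5, Fcer2a and Cr2 were highest there, as the class II mean was, while Fcrla and Cd72 were lowest there. There the mean of 8 B cell precursor markers was 10.06, below the 10.34 and 10.41 of the other diabetic arrays, and the mean of 7 T cell markers was the highest of the 6 arrays, the other 5 lying between 8.44 and 8.80. Of the 13 mature B cell markers, 8 were lower and 5 higher in diabetic marrow and 0 passed in limma (0 at an unadjusted p under 0.05), with a median of -0.07. Fcrla, an intracellular Fc receptor-like protein, was at -0.42 ± 0.28 and Cd72, an inhibitory coreceptor, at -0.37 ± 0.31. Fcer2a, the low-affinity IgE receptor CD23, was at 0.38 ± 0.32 and Cr2, the complement receptor CD21, at 0.30 ± 0.26 (SE, n = 3 per group). Of the 8 precursor markers, 7 were lower with a median of -0.46. In limma 0 passed (1 at an unadjusted p under 0.05, Rag1, against 7.18% of all genes). Rag1, the recombinase subunit, was at -0.60 ± 0.21, Vpreb3 at -0.50 ± 0.32, Dntt at -0.47 ± 0.25 and Blnk, an adaptor of the B cell receptor, at -0.47 ± 0.26. Without wild type replicate 3 the list means differed by -0.31 for mature B cells and -0.59 for precursors, against -0.04 and -0.33 with it, and 2 of the 8 precursor markers then passed in limma, where 0.574% of all genes did. These were Rag1 (change -0.89, adjusted p = 0.0117) and Ebf1, a transcription factor of the B lineage (change -0.86, adjusted p = 0.0123), the second named after its value was seen. Wild type replicate 3 was singled out for its low mature B cell mean, and both list means were lowest among wild type arrays there. Leaving it out had to lower both differences, so the values without it are no separate test. The part of B cell content in the class II values was not tested.

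**Figure D3:**
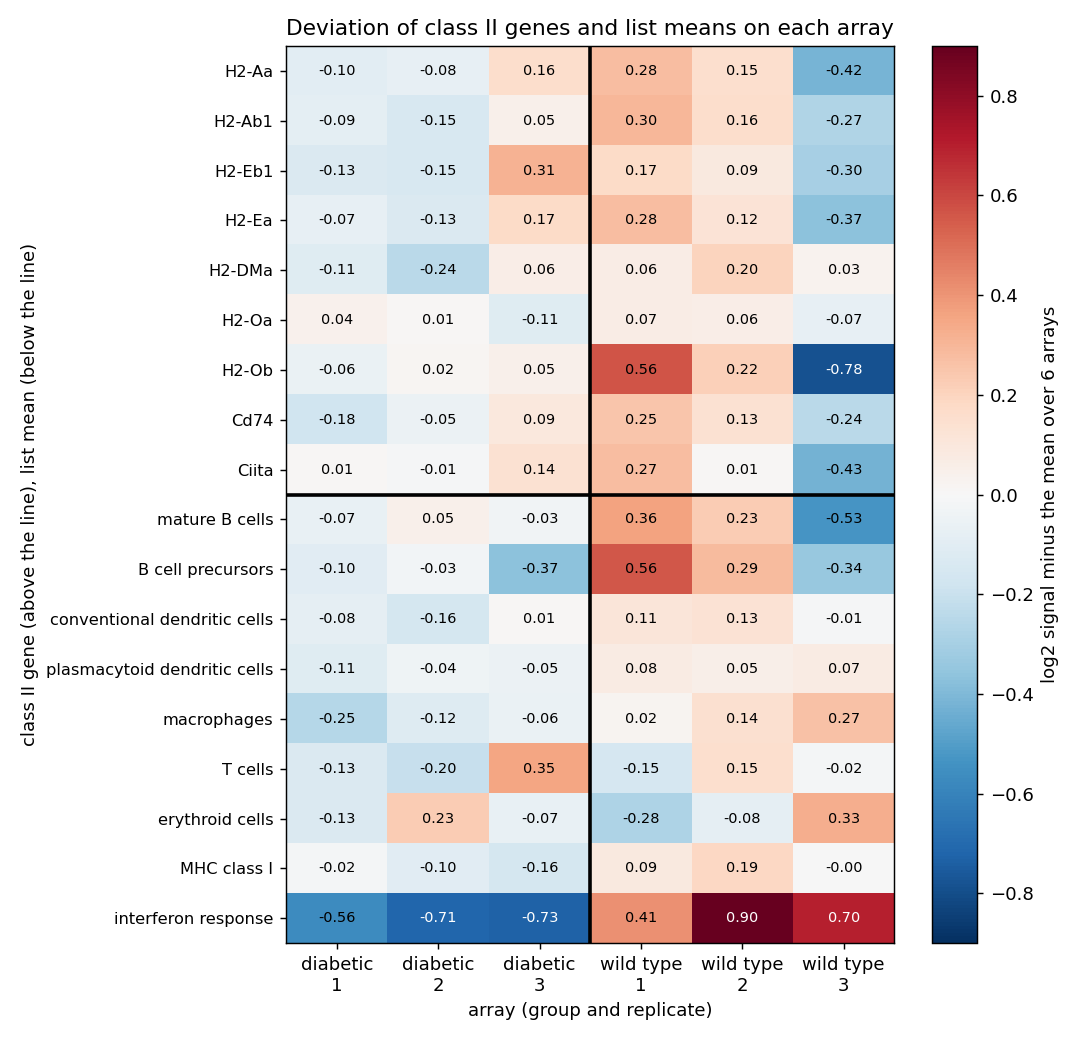
Log2 signal minus the mean over the 6 arrays for each class II gene (rows above the line) and for the means of marker and pathway lists (rows below), on the 3 diabetic and 3 wild type arrays (columns), as printed in each cell. H2-Aa at -0.42, H2-Ob at -0.78 and the mature B cell mean at -0.53 are low on wild type replicate 3, where the interferon response mean is high, at 0.70.

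Macrophage markers were not low on that array. The mean of 9 macrophage markers was 9.75, 9.89 and 9.94 in diabetic and 10.03, 10.15 and 10.27 in wild type marrow, where wild type replicate 3 was the highest of all. Of these markers 8 were lower in diabetic marrow. In limma 7 had an unadjusted p under 0.05, against 7.18% of all genes, but 0 passed the adjusted threshold. C1qb, a chain of complement C1q, was at -0.62 ± 0.12 and Axl, a receptor for dying cells, at -0.53 ± 0.09, while C1qc was at -0.35 ± 0.12 and Siglec1, a sialic acid receptor of resident macrophages, at -0.34 ± 0.07. Their smallest adjusted p in limma was 0.0717, for Axl. The marker that was not lower, Adgre1, an adhesion receptor widely used as a macrophage surface marker, was at 0.27 ± 0.14, and is named here after its value was seen. The mean change of the 9 was -0.29, and -0.23 without wild type replicate 3.

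Of 9 conventional dendritic cell markers, 6 were lower, and their median was -0.07. In limma 0 passed (5 at an unadjusted p under 0.05, against 7.18% of all genes). Itgax, the CD11c integrin, was at -0.37 ± 0.07 with separate groups, as 5.39% of all genes were in the lower direction. Cd209a, a lectin of monocyte-derived and type 2 dendritic cells, was at -0.53 ± 0.20. Clec9a, a receptor of the cross-presenting subset, was at -0.33 ± 0.14 and the lectin Clec10a at -0.33 ± 0.10. Flt3, the receptor of a growth factor for dendritic cells and their progenitors, also had such a p but pointed the other way. It was at 0.23 ± 0.06 with separate groups, as 6.97% of all genes were in the higher direction. It is named here after its value was seen. The mean change of the 9 was -0.15, and -0.20 without wild type replicate 3. Of 7 plasmacytoid dendritic cell markers, 5 were lower and 0 passed in limma (3 at an unadjusted p under 0.05, against the same 7.18%). Cox6a2 was at -0.34 ± 0.06, Bst2, which is also an interferon response gene, at -0.27 ± 0.06, Tcf4, the transcription factor of that lineage, at -0.21 ± 0.07 and Siglech at -0.07 ± 0.07.

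The steps around the class II molecule were then read. Among 10 genes of endosomal proteolysis, 8 were lower and 2 higher, and the median was -0.07. In limma 0 passed (2 at an unadjusted p under 0.05, against 7.18% of all genes). Ifi30, the interferon gamma inducible thiol reductase that opens disulphide bonds of antigens, had log2 signals of 11.97, 11.90 and 11.91 in diabetic and 12.49, 12.34 and 12.04 in wild type marrow. Its groups were separate, as 5.39% of all genes were in that direction, and its change was -0.36 ± 0.11 (SE, n = 3 per group, limma adjusted p = 0.520). Without wild type replicate 3 it was at -0.49 and passed, with an adjusted p of 0.0324 in limma, where 0.574% of all genes passed. That array had the lowest wild type value of Ifi30, so omitting it had to lower the change and is no separate test. Lgmn, an asparagine endopeptidase that starts the cleavage of the invariant chain, had 9.58, 9.74 and 9.44 in diabetic and 9.79 on each of the 3 wild type arrays, a change of -0.20 ± 0.08. Ctss, the cathepsin that makes the last cut of the invariant chain in B cells and dendritic cells, was at -0.09 ± 0.08, and Cst3, a cathepsin inhibitor, at -0.09 ± 0.07. Marchf1, a ubiquitin ligase that removes class II from the surface, was at 0.12 ± 0.07 and its relative Marchf8 at -0.06 ± 0.21. Neither of these 2 passed, and H2-Eb2, a further E beta chain, lay below the level filter with log2 means of 7.20 in diabetic and 7.07 in wild type marrow.

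The factors that act on the class II promoters differed little between the groups. Of 7, 6 were lower and 1 higher, 0 passed in limma (0 at an unadjusted p under 0.05), and the changes ran from -0.10 for Nfyc to 0.08 for Rfxap. Nfya and Nfyc are subunits of NF-Y and Rfxap and Rfxank subunits of the RFX complex. Nfya was at -0.09 ± 0.08 and Rfxank at -0.02 ± 0.06 (SE, n = 3 per group).

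Of 7 genes on the route from interferon gamma to Ciita, 0 passed in limma. An unadjusted p under 0.05 was found for 4, against 7.18% of all genes, and these 4 pointed both ways. Socs1, a feedback inhibitor of Janus kinases that interferon itself induces, had 8.90, 8.80 and 8.92 in diabetic and 9.08, 9.22 and 9.14 in wild type marrow, a change of -0.27 ± 0.07 (SE, n = 3 per group, limma adjusted p = 0.282). Irf1, a transcription factor that binds the inducible Ciita promoter, was at -0.27 ± 0.11. Ifngr1, the ligand-binding receptor chain, was at 0.21 ± 0.07 and the kinase Jak2 at 0.17 ± 0.06, both with separate groups, as 6.97% of all genes were in the higher direction. Among 4 other regulators of Ciita, Spi1, the myeloid and B cell factor PU.1, was at 0.20 ± 0.08, Irf4 at -0.51 ± 0.31, Pax5 at -0.17 ± 0.28 and Irf8 at 0.00 ± 0.10, and 0 passed in limma (1 at an unadjusted p under 0.05). Pax5 and Irf4 were lower on wild type replicate 3 than on the other wild type arrays, at 10.26 and 9.30 against 11.40 and 11.10 for Pax5 and 10.50 and 10.33 for Irf4.

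Costimulators, the second signal that a presenting cell gives, were divided. Of 5, 3 were lower and 2 higher and 0 passed in limma (2 at an unadjusted p under 0.05, against 7.18% of all genes). Icosl, the ligand of ICOS, had 9.77, 9.78 and 10.10 in diabetic and 9.66, 9.71 and 9.29 in wild type marrow, a change of 0.33 ± 0.13 (SE, n = 3 per group). Cd83, which protects surface class II from removal by Marchf1, had 7.93, 8.02 and 7.93 in diabetic and 8.21, 8.21 and 8.09 in wild type marrow, a change of -0.22 ± 0.06. Both had separate groups, as 6.97% of all genes had in the higher and 5.39% in the lower direction. Cd40 was at -0.10 ± 0.13 and Cd86 at -0.09 ± 0.08.

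The class II genes were set beside class I genes and interferon response genes of the same arrays. Of 7 class I genes tested, 6 were lower in diabetic marrow and 4 had separate groups, with a median of -0.20 and 0 past the threshold in limma (4 at an unadjusted p under 0.05). Over all genes, 5.39% were separate and lower and 7.18% had such a p. The mean change of the 7 was -0.18, and -0.23 without wild type replicate 3. Tap1, a peptide transporter subunit, was at -0.34 ± 0.10, Psmb9, an immunoproteasome subunit, at -0.22 ± 0.08 and Tapbp, the loading factor tapasin, at -0.20 ± 0.06. Nlrc5, which serves class I genes as Ciita serves class II, had 10.88, 10.71 and 10.69 in diabetic and 11.18, 11.11 and 10.80 in wild type marrow, a change of -0.27 ± 0.11. The change of Nlrc5 minus that of Ciita was -0.37, and the within-array difference of the 2 genes was lower on all 3 diabetic arrays than on any wild type array (two-sided exact permutation p = 0.1 over 20 splits, the smallest this design allows). This pair was chosen after its values were seen, as was Ifi30 against Cd74, whose changes differed by -0.27 with the same exact permutation p of 0.1, and Tap1 against Cd74, at -0.25 with an exact permutation p of 0.3.

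Of 10 interferon response genes tested, 9 fell past the threshold in limma, where 0.333% of all genes did so in that direction. This list was chosen with earlier results of these data known, so the count is a description and no test. Ifit3, Rtp4, Oas2 and Ifit1, antiviral effectors and sensors of that program, had changes of -1.78 ± 0.16, -1.67 ± 0.21, -1.49 ± 0.16 and -1.49 ± 0.24 (SE, n = 3 per group), of which that of Ifit1 had an adjusted p of 0.0537 and did not pass. The count of 9 became 2 of 10 without diabetic replicate 1, 0 of 10 without diabetic replicate 2, 3 of 10 without diabetic replicate 3, 5 of 9 without wild type replicate 2, 8 of 9 without wild type replicate 3 and 0 of 10 with the replicate number as a block. The groups of all 10 genes were separate, as 5.39% of all genes were in the lower direction. The mean of the 10 was 8.63, 8.48 and 8.46 in diabetic and 9.60, 10.09 and 9.89 in wild type marrow. The lower 95% bounds of the class II changes lay at -0.45 or above for 8 of the 9 members and at -0.68 for H2-Ob. The mean of the interferon response genes differed by -1.34, a point estimate given without an interval.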

How the data were processed

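RNA of 6 marrow samples was measured on Affymetrix gene arrays. Per the submitters' processing notes, the deposited log2 values came from Affymetrix Expression Console, where the authors ran RMA, which corrects background, equalises the distributions of arrays and summarises probes, so a shift shared by most genes cannot be seen. No version or genome build is named in the labels or notes. Median log2 signals of the 6 arrays lay between 7.67 and 7.73.

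Of 35556 probe sets, 21789 had 1 symbol in the platform annotation, 1621 several and 12146 none. Per gene the set with the highest mean was kept (19938 genes), and 12029 genes were tested, those whose mean log2 signal reached 7.50 (40th percentile over named sets). All 9 class II genes passed this filter. Groups came from the sample titles. Diabetic and wild type arrays were compared in R 4.3.3 with limma 3.58.1 (lmFit, eBayes), with no covariate, Benjamini-Hochberg adjustment over all genes tested and a threshold of 0.05. The exact permutation tests were two-sided. The script was tested on simulated data. Python 3.11.15 and matplotlib 3.10.9 drew the figures. Alternatives were other level filters, normalizations, probe set rules and limma settings, a replicate block, and leaving out each array.

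The members and lists were chosen with earlier results of these data known. Genes were named by a rule: all members, up to 4 genes per list with the largest absolute change, and the 10 genes nearest in profile. For the plasma cell, T cell, neutrophil and erythroid lists only means are given. The 6 plasma cell markers tested averaged 9.40 ± 0.05 in diabetic and 9.80 ± 0.22 in wild type marrow (SD, n = 3 each). Sequences are RefSeq's, of GRCm38.p6.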

Additional observations from a re-analysis of the deposited data

How the results depend on the processing

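The count of class II genes past the threshold was 0 in all alternatives but array weights, where it was 3 (H2-Ab1 at -0.23, H2-DMa at -0.29 and Cd74 at -0.25). With weights estimated gene by gene, a setting chosen after seeing the data whose result depends on the order of the genes, it was 0. The count of all genes changed was 52, and it was 1878 with array weights, 172 with weights gene by gene, 2 with the replicate block and between 3 and 69 with 1 array omitted. Deviations of same-numbered arrays from their group means correlated at 0.33, -0.04 and -0.05 across genes. Those of arrays with unlike numbers correlated at between -0.31 and 0.27. With 3 arrays per group, these values cannot settle whether the replicate numbers pair the arrays. With 1 array of each group per replicate number, the block cannot alter a change but only its error. Under it 0 of the 9 class II genes passed the threshold in limma (0 at an unadjusted p under 0.05). Ifit3, Rtp4 and Oas2 did not pass either, at adjusted p of 0.0685, 0.106 and 0.0863 in limma. With 1 array omitted, the median change of the 9 genes lay between -0.22 and 0.11, H2-Aa between -0.22 and 0.13, H2-Ab1 between -0.29 and -0.0072, H2-Eb1 between -0.13 and 0.12, H2-Ea between -0.21 and 0.11, H2-DMa between -0.28 and -0.13, H2-Oa between -0.083 and 0.0073, H2-Ob between -0.39 and 0.29, Cd74 between -0.24 and 0.0090 and Ciita between -0.097 and 0.25. H2-Ob was at -0.0082 with quantile normalization, -0.0072 with median centring, -0.24 with array weights and -0.21 with weights gene by gene, and H2-Eb1 at -0.15 and -0.082 with these weightings. Of other named genes, Irf8 was at -0.0029 with quantile normalization, -0.0077 with median centring and -0.0065 with weights gene by gene. Nfyc was at 0.017 with the mean over its probe sets, Nfya at 0.00014 with array weights, Cr2 at -0.17 with array weights and -0.00022 with weights gene by gene, and Marchf8 at 0.0097 with the same. With 1 array omitted, Irf8 lay between -0.081 and 0.077, Marchf8 between -0.23 and 0.19, Rfxank between -0.044 and 0.0042, Pax5 between -0.50 and 0.071, Cd40 between -0.27 and 0.0092 and Fcer2a between -0.026 and 0.71. Of the 10 genes nearest in profile, 5 were shared with no level filter and between 1 and 7 with 1 array omitted. Ebf1, Adgre1, Flt3, Elane, Ltf and the genes nearest in profile were left out of the counts that follow. Of the 50 other list genes named, 33 that had missed the threshold passed it with array weights and 10 with weights gene by gene. Over all genes, 15.6% and 1.43% passed in these fits. The named genes were picked from their lists by largest absolute change, so these counts are no result about them. The cause of these shifts was not tested.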
